A study of Mus musculus with 6 samples.

Results

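Phase II conjugation enzymes attach a polar group to drugs, hormones, bilirubin, bile acids and reactive products of metabolism, which can then leave the hepatocyte for bile or blood. They were taken here as the genes whose symbols name a UDP-glucuronosyltransferase of families 1 to 3 (Ugt), a cytosolic sulfotransferase (Sult), a glutathione transferase of the alpha, kappa, mu, omega, pi, theta or zeta class (Gst), or 1 of the 3 microsomal glutathione transferases (Mgst). That rule took 55 of the 16603 genes of the deposited table: 18 UGT, 13 SULT and 24 GST and MGST genes. The 6 bulk RNA-seq libraries came from mouse liver, of which 3 are labelled wild-type and 3 are labelled as the Mdr2 knockout. The protein Mdr2, whose gene is Abcb4, carries phosphatidylcholine across the canalicular membrane into bile, and its loss in mice is known to cause chronic bile duct injury. Age, sex, strain, allele and any treatment are not stated in the labels, and nothing says that the samples are different mice. The p-values below therefore describe the spread among these libraries, and some of it could be technical.

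UDP-glucuronosyltransferases are membrane enzymes of the endoplasmic reticulum that transfer glucuronic acid from UDP-glucuronic acid. Sulfotransferases are cytosolic and use the sulfate donor PAPS. Glutathione transferases join the tripeptide glutathione to electrophiles, and several of them are known as targets of the oxidant-sensing factor NRF2.

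Library totals ran from 17100393 to 18124467 counts, and 12612 genes were tested with edgeR after a filter on low counts. Abcb4 itself was higher in the libraries labelled knockout, at 482 ± 42.4 CPM (counts scaled to library size with TMM; SD, n = 3) against 324 ± 48.1 CPM (SD, n = 3) in those labelled wild-type (edgeR adjusted p = 0.00389). The labels do not say which part of the gene was removed, so this count cannot check the genotype. No label spells out the column letter taken for wild-type, which was left over once the other letter had been matched. Groups are therefore named by their labels, and each direction is that of the labelled libraries. The hepatocyte genes of a fixed list of 16 summed to 141500 to 154500 CPM per labelled wild-type library. Their sums per labelled knockout library were 90620 to 94670 CPM. Of these genes 9 were lower, 0 higher and 7 not called, with a median log2 fold change of -0.45. Among all tested genes, 16.3% were called lower and 20.9% higher. In bulk tissue, fewer hepatocytes and less RNA of these genes per hepatocyte cannot be told apart.

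The 3 enzyme families did not move alike. With TMM scaling, glutathione transferases were the most often higher, and sulfotransferases and glucuronosyltransferases were more often lower than higher. The order in sulfotransferases and glucuronosyltransferases depended on the scaling. With total-count scaling, 4 UGT genes were called higher and 3 lower, and 2 SULT genes higher and 2 lower. GST and MGST calls were then 12 higher and 2 lower. Of the 55 genes, 46 passed the low-count filter: 12 rose, 13 fell and 21 were not called. A gene could pass through the libraries of a single group, as Gsta1 did in the labelled knockout and Sult2a7 in the labelled wild-type. Without the filter both were still called (edgeR adjusted p = 1.06e-05 and 0.00773). At an edgeR adjusted p under 0.05, 37.1% of all tested genes were called (20.9% higher and 16.3% lower), against 54.3% of these 46 (26.1% higher and 28.3% lower). In 28 of the 46 genes (60.9%) the groups were apart, without overlap, as they were in 51.3% of all tested genes.

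By family, 10 of 22 tested GST and MGST genes rose and 5 fell, with a median log2 fold change of 0.14. Of 16 tested UGT genes, 1 rose and 4 fell (median -0.27). Of 8 tested SULT genes, 1 rose and 4 fell (median -0.46). The median over all tested genes was 0.01. The difference between families was described by these counts and not tested. Changes of at least 2-fold were called for 7 higher and 4 lower members, against 11.1% and 0.753% of all tested genes. The direction of small changes rested on the scaling: total-count scaling moved the median over all tested genes up by 0.29 (log2), and with it all 12 higher members remained called, 6 more were called higher, and 7 of the 13 lower members remained. The UGT median turned to 0.02 with that scaling, while the SULT median stayed negative at -0.17.

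**Figure D1:**
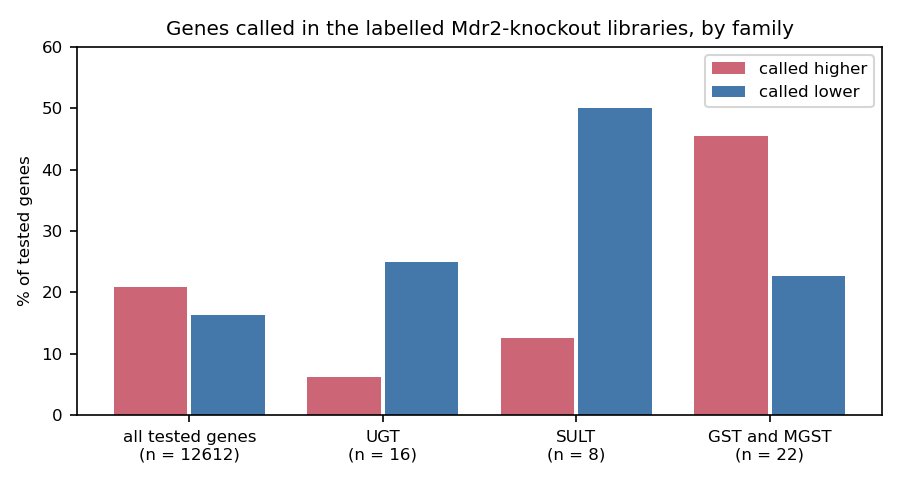
Percent of tested genes called higher (red) or lower (blue) in the labelled Mdr2-knockout libraries (vertical axis) for all tested genes and for each enzyme family (horizontal axis, with the number of tested genes). GST and MGST genes were called higher more often (45.5%) than lower (22.7%), and the UGT and SULT bars show the opposite order, at 6.25% and 25% and at 12.5% and 50%.

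The balance between the families can also be read within each library, where the scaling cancels. FPKM, which divide the counts by gene length, were summed over each family and taken as a share of the 3 families together. GST and MGST transcripts made up 68.1% to 71.8% of that sum per labelled wild-type library and 74.9% to 77.3% per labelled knockout library. The UGT share was 23.2% to 26% and 19.9% to 22%, and the SULT share 4.92% to 5.93% and 2.74% to 3.13%. The 3 labelled knockout libraries lay apart from the 3 labelled wild-type libraries in each share. These are sums dominated by a few abundant genes, and no test was made on them.

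**Figure D2:**
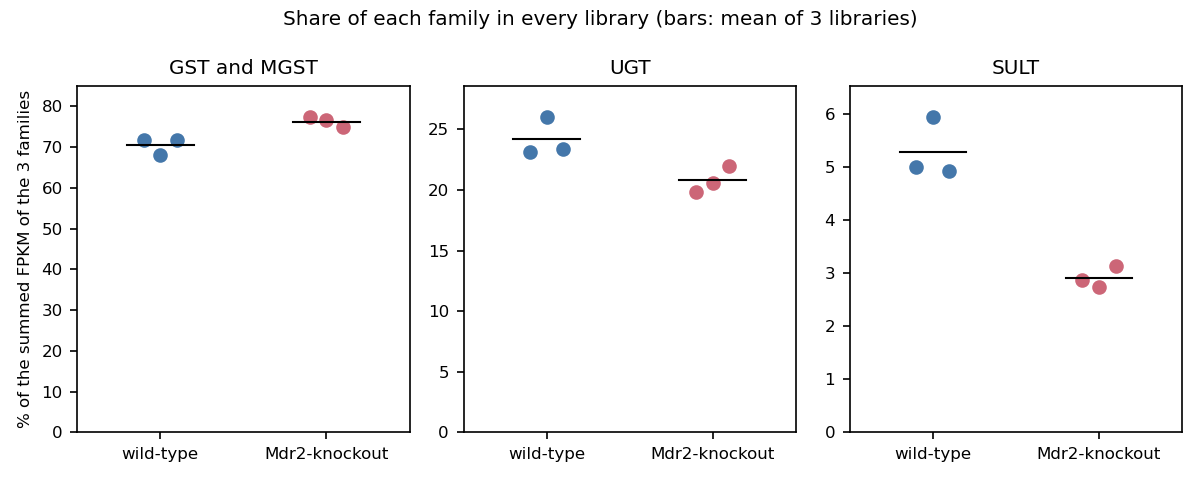
Share of each enzyme family in the summed FPKM of the 3 families (vertical axis, percent) in each of the 6 libraries, with points for libraries and bars for the mean of 3. The GST and MGST share is higher in each labelled Mdr2-knockout library (74.9% to 77.3%) than in each labelled wild-type library, and the UGT and SULT shares are lower. The shares of a library add up to the whole and are not independent.

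On the TMM scale the summed SULT level was 1336 ± 137 CPM (SD, n = 3) in the labelled wild-type and 730 ± 28.1 CPM (SD, n = 3) in the labelled knockout libraries, a ratio of 0.546, or 0.67 with total-count scaling. The summed UGT level was 5018 ± 282 and 4125 ± 230 CPM (ratio 0.822, and 1.01 with total counts). The summed GST and MGST level was 7544 ± 332 and 7822 ± 821 CPM (ratio 1.04, and 1.27 with total counts). So the sums of UGT and of GST and MGST moved by an amount that the scaling alone can remove or add, and only the SULT sum was lower with both scalings.

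**Figure D3:**
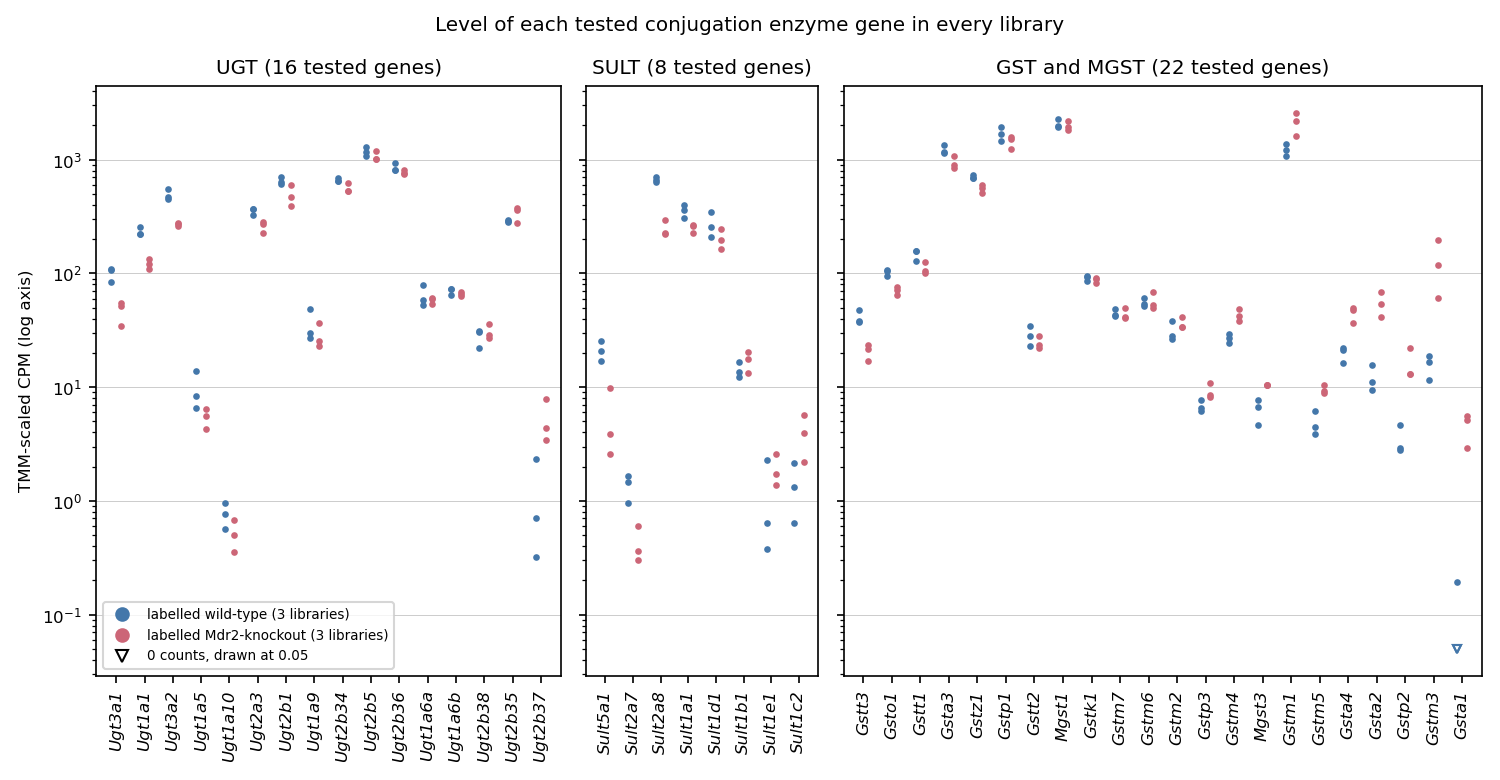
TMM-scaled CPM on a log axis (vertical) of each tested gene (horizontal, ordered by fold change within each family) in every library, blue for labelled wild-type and red for labelled Mdr2-knockout. The labelled knockout points lie wholly above the wild-type points for Gsta1, Gsta2, Gstm3 and Gstp2, and wholly below for Sult2a8, Ugt1a1 and Ugt3a2, while those of Gstp1, Mgst1 and Ugt2b5 overlap.

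Calls among the glutathione transferases went in both directions. The alpha class genes on chromosome 9 (Gsta1, Gsta2, Gsta4) rose, as did Gstm1, Gstm3, Gstm4 and Gstm5 of the mu class, Gstp2 and Gstp3 of the pi class and the microsomal enzyme gene Mgst3. The theta class genes Gstt1 and Gstt3, the omega gene Gsto1, the zeta gene Gstz1 and the alpha gene Gsta3, which lies alone on chromosome 1, fell.

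Gsta1, an alpha class transferase gene, was nearly absent from the labelled wild-type libraries, with 0, 3 and 0 counts, and had 112, 103 and 56 counts in labelled knockout replicates 1, 2 and 3. The ratio was 72, with an exact 95% counting interval of 24.4 to 351 (edgeR adjusted p = 0.000122), which pools the libraries of a group and covers counting error only. All 3 counts of the labelled wild-type group came from replicate 2, and without that library the gene was still called (edgeR adjusted p = 0.000713). Every labelled knockout library lay above every labelled wild-type library. Its neighbour Gsta2 stood at 15.6, 11 and 9.46 CPM in the labelled wild-type and 68.9, 53.3 and 41.3 CPM in the labelled knockout libraries, which is 2.18 ± 0.27 (SE) in log2 fold change (edgeR adjusted p = 0.00241). Gsta4, whose enzyme is known for clearing the lipid peroxidation product 4-hydroxynonenal, rose from 21.9, 21.2 and 16.3 CPM to 49.5, 47.9 and 36.9 CPM (SE 0.14 around a log2 fold change of 1.18, edgeR adjusted p = 0.000488). In all 3 genes labelled knockout replicate 3 was the lowest of its group, yet above the whole labelled wild-type group. Gsta3, the most abundant alpha class gene, went the other way, from 1339, 1145 and 1179 CPM to 1087, 889 and 839 CPM (SE 0.11 around a log2 fold change of -0.38, edgeR adjusted p = 0.0228). The gap between its groups was small, and the call was lost without labelled wild-type replicate 1 (edgeR adjusted p = 0.0741), without labelled knockout replicate 2 (0.0748) or 3 (0.0825), and with total-count scaling (0.556).

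Reads of Gsta1 and Gsta2 could be split or lost between the copies. In the GENCODE M21 transcripts, 89.7% of the 50-base windows of the longest Gsta1 coding transcript also occur in another gene, chiefly the gene model Gm3776, and 64.2% of those of Gsta2, chiefly Gsta1. For Gsta3 and Gsta4 that share is 0. The rise of Gsta4 and fall of Gsta3 therefore do not rest on shared windows, while single values of Gsta1 and Gsta2 are uncertain.

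The mu class genes stand in a row on chromosome 3, in the order Gstm5, Gstm7, Gstm6, Gstm3, Gstm2, Gstm1 and Gstm4 from 107895821 to 108044894 (GRCm38). Along it, Gstm5, Gstm3, Gstm1 and Gstm4 rose and the other 3 were not called. Gstm3 had the largest fold of the row, from 18.6, 11.6 and 16.5 CPM to 119, 197 and 61.1 CPM (SE 0.55 around a log2 fold change of 3.01, edgeR adjusted p = 0.0167). The groups were far apart, but the labelled knockout libraries themselves spread more than 3-fold, and the call was lost without any 1 of the labelled wild-type replicates 1, 2 or 3 (edgeR adjusted p = 0.0587, 0.062 and 0.0614) or without labelled knockout replicate 1 (0.0502).

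Gstm1, the most abundant mu class gene, rose from 1363, 1085 and 1218 CPM to 2191, 2582 and 1630 CPM (SE 0.17 around a log2 fold change of 0.80, edgeR adjusted p = 0.00663). Its labelled knockout libraries had the same order as those of Gstm3, with replicate 2 highest and replicate 3 lowest. Within the GST and MGST sum of FPKM, Gstm1 took 14.3% to 17% per labelled wild-type library and 22.8% to 29.8% per labelled knockout library, a share that the library scaling does not enter. Gstm4 rose from 27.0, 24.5 and 29.1 CPM to 48.8, 41.8 and 37.8 CPM (0.67 as log2 fold change, edgeR adjusted p = 0.000923). Gstm5, which is set in the opposite strand to the other mu genes, rose from 4.45, 3.83 and 6.18 CPM to 9.18, 8.96 and 10.5 CPM (0.98, edgeR adjusted p = 0.0023). Gstm2 (log2 fold change 0.24), Gstm6 (0.04) and Gstm7 (-0.03) had overlapping groups and adjusted p-values of 0.23, 0.809 and 0.814 by edgeR. Shared 50-base windows made up 23.1% of the Gstm1 and 28.8% of the Gstm3 transcript, and 0% of those of Gstm4 and Gstm5.

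In the pi class, Gstp1 was not called and Gstp2 and Gstp3 rose; the difference between them was not tested. Gstp1, the most abundant of all 55 genes per length at 2046 ± 265 FPKM (SD, n = 3) in the labelled wild-type and 2148 ± 262 FPKM (SD, n = 3) in the labelled knockout libraries, was not called. It stood at 1450, 1693 and 1919 CPM and at 1529, 1567 and 1238 CPM, and the groups overlapped (log2 fold change -0.22, SE 0.12, edgeR adjusted p = 0.179; 0.07 with total-count scaling). Gstp2 rose from 2.80, 2.94 and 4.61 CPM to 13.1, 22.2 and 13.1 CPM (SE 0.28 around a log2 fold change of 2.23, edgeR adjusted p = 0.000967), with every labelled knockout library above every labelled wild-type library. Gstp2 was called with each alternative tried. Of the Gstp2 transcript, 72.6% of 50-base windows recur in another gene, chiefly Gstp1, so its counts come from the remaining part or were shared out by the counting. Of the Gstp1 windows, 62.3% recur in Gstp2, so single values of both genes are uncertain. Gstp3 rose from 7.69, 6.19 and 6.56 CPM to 10.8, 8.56 and 8.26 CPM (0.43, edgeR adjusted p = 0.0483). That small change was lost without labelled wild-type replicate 2 or 3 (edgeR adjusted p = 0.155 and 0.108), without labelled knockout replicate 1 or 2 (0.178 and 0.0691), and with DESeq2 (0.0739), limma-voom (0.0593), RLE scaling (0.0516) or no low-count filter (0.0517).

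The RefSeq promoters of these GST genes (GRCm38.p6) are shown for a pair of close copies with different calls, Gstp1 and Gstp2, for a pair with the same call, Gsta1 and Gsta2, and for Gstm1 and Gstm5, the most abundant and the first in the row of the mu genes that rose. Each line gives the 250 bases before a start site, 5′ to 3′ on the gene's strand. Capitals mark matches on either strand to the core of the NRF2-bound antioxidant response element (TGACNNNGC), to the core bound by the aryl hydrocarbon receptor (GCGTG) and to the AP-1 site TGAGTCA, the last of which was added after the sequences had been read.
Gstp1, chr19:4037913-4038162, minus strand: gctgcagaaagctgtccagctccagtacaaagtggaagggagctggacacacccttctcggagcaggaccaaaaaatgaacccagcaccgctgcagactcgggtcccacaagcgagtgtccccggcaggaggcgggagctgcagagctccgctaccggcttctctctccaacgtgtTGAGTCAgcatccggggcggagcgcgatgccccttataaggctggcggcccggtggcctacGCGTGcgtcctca
Gstp2, chr19:4042222-4042471, minus strand: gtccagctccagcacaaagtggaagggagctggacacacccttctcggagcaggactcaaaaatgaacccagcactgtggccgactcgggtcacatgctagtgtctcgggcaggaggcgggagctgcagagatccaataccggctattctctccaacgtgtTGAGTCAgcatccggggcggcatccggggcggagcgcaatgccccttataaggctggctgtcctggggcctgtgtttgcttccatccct
Gsta1, chr9:78230419-78230668, plus strand: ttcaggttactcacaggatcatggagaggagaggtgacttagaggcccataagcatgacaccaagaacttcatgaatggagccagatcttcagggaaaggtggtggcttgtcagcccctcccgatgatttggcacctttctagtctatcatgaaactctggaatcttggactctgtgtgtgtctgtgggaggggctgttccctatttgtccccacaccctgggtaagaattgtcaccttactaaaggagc
Gsta2, chr9:78347146-78347395, minus strand: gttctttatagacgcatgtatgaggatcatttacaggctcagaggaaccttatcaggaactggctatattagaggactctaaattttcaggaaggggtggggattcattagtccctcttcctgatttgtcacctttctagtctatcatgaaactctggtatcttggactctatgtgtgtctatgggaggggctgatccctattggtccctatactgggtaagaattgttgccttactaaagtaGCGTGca
Gstm1, chr3:108017974-108018223, minus strand: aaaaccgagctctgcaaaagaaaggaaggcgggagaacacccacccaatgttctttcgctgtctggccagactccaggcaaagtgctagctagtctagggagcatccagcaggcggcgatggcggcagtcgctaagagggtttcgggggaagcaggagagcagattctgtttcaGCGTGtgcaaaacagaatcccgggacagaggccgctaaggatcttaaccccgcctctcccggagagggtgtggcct
Gstm5, chr3:107895604-107895853, plus strand: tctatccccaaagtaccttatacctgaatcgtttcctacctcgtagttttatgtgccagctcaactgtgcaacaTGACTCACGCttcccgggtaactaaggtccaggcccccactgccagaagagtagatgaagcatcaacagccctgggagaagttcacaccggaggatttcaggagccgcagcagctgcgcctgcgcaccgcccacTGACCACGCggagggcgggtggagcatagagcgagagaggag

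Over their aligned length the Gstp1 and Gstp2 promoters were identical at 78.5% of columns and those of Gsta1 and Gsta2 at 71.4%. The AP-1 letters begin 74 bases before the Gstp1 start and 89 bases before the Gstp2 start, while the GCGTG of Gstp1, 13 bases before its start, is absent from the Gstp2 window. In Gstm5 the antioxidant element letters begin 42 bases before the start and overlap a GCGTG match on the opposite strand, as does the AP-1 match that begins at 176. A promoter of 250 bases before to 50 after the start was listed for 47 of the 55 genes. TGACNNNGC occurred in 4 of them (8.51%), against 14% of all 27025 genes listed, and in 1 of the 11 listed genes that rose and 1 of the 11 that fell. All 4 were among the 22 listed GST and MGST genes (18.2%), with 0 of 16 UGT and 0 of 9 SULT genes. GCGTG occurred in 6 of the 11 that rose and 0 of the 11 that fell, against 35.2% of all genes. The 6 include the close copies Gsta1 and Gsta2, and the Gsta1 match does not lie within the 250 bases printed above. TGAGTCA occurred in 3 of the 11 that rose and 0 of the 11 that fell, and in 5.95% of all genes. It was chosen after these sequences had been read, so nothing can be drawn from that difference. These matches are letters in a window and were not tested.

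Among the remaining glutathione transferases, Mgst3 rose from 7.63, 4.6 and 6.69 CPM to 10.4, 10.5 and 10.4 CPM (SE 0.17 around a log2 fold change of 0.73, edgeR adjusted p = 0.00807). Mgst1, a membrane enzyme of the endoplasmic reticulum and mitochondria and the second most abundant gene per length, held 2297, 1971 and 1935 CPM and 2186, 1808 and 1946 CPM, with overlapping groups (-0.06, edgeR adjusted p = 0.664; 0.23 with total counts). Gstt3 of the theta class fell from 47.9, 37.2 and 37.9 CPM to 21.5, 16.8 and 23.6 CPM (SE 0.14 around a log2 fold change of -0.99, edgeR adjusted p = 0.00118), and no labelled knockout library reached a labelled wild-type library. It was called with each alternative tried except the 2-fold threshold. Gstt1 fell from 157, 158 and 128 CPM to 126, 101 and 106 CPM (-0.41, edgeR adjusted p = 0.014), a narrow separation that was lost without labelled wild-type replicate 2 (edgeR adjusted p = 0.0554), without labelled knockout replicate 2 (0.0522) and with total-count scaling (0.392).

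Gsto1, whose enzyme reduces dehydroascorbate, fell from 107, 105 and 94.3 CPM to 64.3, 76.6 and 71.2 CPM (SE 0.08 around a log2 fold change of -0.53, edgeR adjusted p = 0.000951), a call lost in the limma fit of log2 FPKM (limma adjusted p = 0.0524). Gstz1, which serves tyrosine breakdown as maleylacetoacetate isomerase, fell from 736, 695 and 694 CPM to 595, 507 and 564 CPM (-0.35, edgeR adjusted p = 0.0101; not called with total counts, adjusted p = 0.617). Both genes had groups that did not overlap. Gstk1 (-0.06, edgeR adjusted p = 0.528) and Gstt2 (-0.22, edgeR adjusted p = 0.308) were not called and their groups overlapped. Gsto2, with group sums of 0 and 7 counts, and Mgst2, with 4 and 1, were too low to test.

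**Figure D4:**
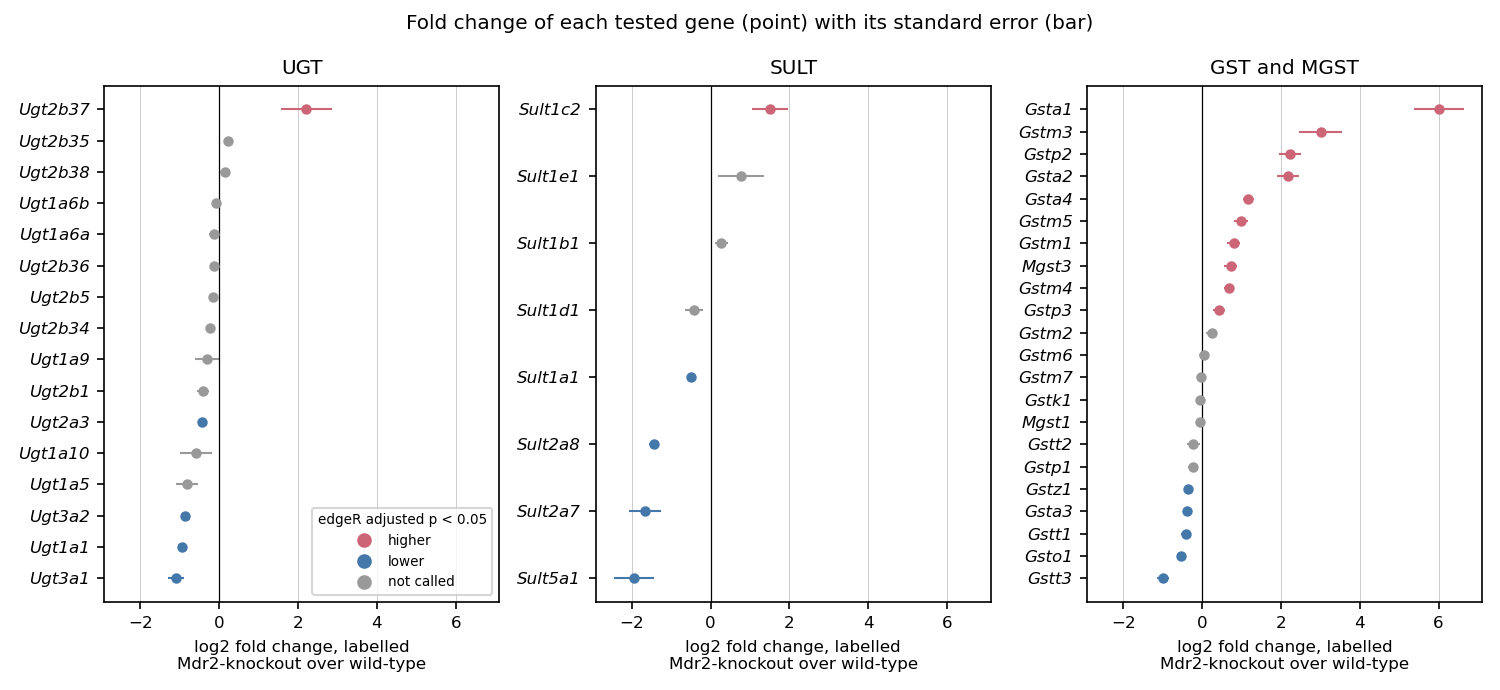
Log2 fold change of labelled Mdr2-knockout over labelled wild-type libraries (horizontal axis) with its standard error (bars) for each tested gene, in red or blue where the edgeR adjusted p was under 0.05 and grey otherwise. GST and MGST genes range from Gstt3 at -0.99 upwards to Gsta1, whose fitted value depends on the handling of 3 counts in the wild-type group, while SULT genes reach -1.94 (Sult5a1) and UGT genes -1.09 (Ugt3a1).

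Sulfation was carried mostly by 3 genes, and the most abundant of them had the smallest p of all 46 tested members. Sult2a8, a mouse liver sulfotransferase known to act on bile acids, fell from 668, 708 and 641 CPM to 297, 221 and 227 CPM, which is -1.44 ± 0.12 (SE) in log2 fold change (edgeR adjusted p = 2.1e-05). The lowest labelled wild-type library held more than 2-fold the highest labelled knockout library, and the call held with each alternative tried. Its share of the summed SULT FPKM was 51.7% to 57.8% per labelled wild-type library and 34.4% to 44% per labelled knockout library. Per length it stood at 240 ± 10.9 and 109 ± 19 FPKM (SD, n = 3). Its chromosome 7 neighbour Sult2a7 fell from 1.46, 0.958 and 1.64 CPM to 0.595, 0.302 and 0.364 CPM (-1.67, SE 0.40, edgeR adjusted p = 0.00846), at 64 against 25 counts over the 3 libraries. Neither gene shares a 50-base window with another transcript.

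Sult1a1, which sulfates simple phenols, fell from 364, 396 and 304 CPM to 262, 224 and 266 CPM (SE 0.11 around a log2 fold change of -0.50, edgeR adjusted p = 0.00588; adjusted p = 0.15 with total counts). The groups did not overlap. Sult1d1, which acts on catecholamines, was not called at 210, 346 and 254 CPM and 165, 244 and 195 CPM (-0.42, SE 0.22, edgeR adjusted p = 0.187), since its libraries spread widely within each group. It was called lower by DESeq2 (adjusted p = 0.0495). An edgeR fit with the replicate number as a block also called Sult1d1 lower (adjusted p = 0.00495), although no label says that the numbers pair the samples. Sult5a1 fell from 17.1, 25.4 and 20.6 CPM to 9.87, 3.88 and 2.60 CPM (-1.94, SE 0.51, edgeR adjusted p = 0.0396). Its groups were apart, but the call was lost without any 1 of labelled wild-type replicates 1, 2 or 3 (edgeR adjusted p = 0.0796, 0.0973 and 0.0979), without labelled knockout replicate 2 or 3 (0.111 and 0.0575), with no low-count filter (0.0632) and with total-count scaling (0.0504). Without labelled knockout replicate 1, the highest of its group, the log2 fold change of Sult5a1 was -2.70 (edgeR adjusted p = 0.000263).

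Sult1c2 was the only tested SULT gene that rose, from 1.34, 0.639 and 2.15 CPM to 5.65, 3.93 and 2.18 CPM (SE 0.46 around a log2 fold change of 1.51, edgeR adjusted p = 0.0351). Its lowest labelled knockout library lay just above its highest labelled wild-type library, and the call was lost without labelled wild-type replicate 1 or 2 (edgeR adjusted p = 0.113 and 0.0897) or labelled knockout replicate 1 or 2 (0.093 and 0.0824). Sult1b1, known for thyroid hormone, and the estrogen sulfotransferase gene Sult1e1 were not called (0.27 and 0.77, edgeR adjusted p = 0.24 and 0.328), and their groups overlapped. The brain-type gene Sult4a1 had no count in any labelled wild-type library (sum 0) and 16 in all labelled knockout libraries, at least 4.25-fold higher if 3 counts are set as the group floor. The low-count filter left it out, and without that filter its edgeR adjusted p was 0.0182. Sult2b1, which acts on cholesterol, had 4 and 13 counts and overlapping groups.

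Sulfotransferase genes known to be female-biased in mouse liver were close to absent. Sult3a1 had 0 counts in every library, which allows up to 0.149 to 0.192 CPM (3 counts in a library; counting error only). Sult2a1 had 2 and 3 counts, and its relative Sult2a2 had 5 and 2, over the labelled wild-type and labelled knockout groups. All 6 libraries held transcripts of the Y-linked genes Ddx3y (68.7 ± 4.18 and 70.5 ± 6.74 CPM; SD, n = 3 per group), Uty (17.7 ± 1.17 and 20.6 ± 2.31 CPM), Kdm5d (19.1 ± 0.622 and 20.1 ± 1.14 CPM) and Eif2s3y (40.3 ± 2.87 and 49.5 ± 2.03 CPM). Of these 4, Eif2s3y was called higher in the labelled knockout libraries (log2 fold change 0.30, edgeR adjusted p = 0.0118) and the others were not called.

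Of the 16 tested UGT genes, 11 were not called, among them the 3 most abundant per length. Ugt1a1, the enzyme gene for bilirubin, fell from 255, 224 and 220 CPM to 134, 109 and 122 CPM (SE 0.10 around a log2 fold change of -0.94, edgeR adjusted p = 8e-05), with every labelled knockout library below every labelled wild-type library. Both genes of the UGT3A group, which is known for transferring sugars other than glucuronic acid, fell. They make up 2 of the 4 UGT genes that fell, so the UGT counts and sums do not describe glucuronidation alone. Ugt3a2 went from 468, 552 and 451 CPM to 271, 261 and 279 CPM (-0.86, SE 0.09, edgeR adjusted p = 0.00012) and Ugt3a1 from 107, 110 and 84.5 CPM to 51.3, 34.8 and 55.4 CPM (-1.09, SE 0.20, edgeR adjusted p = 0.00733). These 3 calls held with each alternative tried, except that Ugt1a1 and Ugt3a2 missed the 2-fold threshold.

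Ugt2a3 fell from 368, 369 and 324 CPM to 286, 224 and 270 CPM (SE 0.10 around a log2 fold change of -0.44, edgeR adjusted p = 0.00771; adjusted p = 0.266 with total counts). The UGT2B genes of chromosome 5 act on steroids, bile acids and many drugs, and 1 of 7 was called. That was Ugt2b37, the least abundant, which rose from 0.318, 0.702 and 2.33 CPM to 3.42, 7.80 and 4.36 CPM (2.21, SE 0.64, edgeR adjusted p = 0.0395). Its groups did not overlap, yet the call was lost without labelled wild-type replicate 1 or 2 (edgeR adjusted p = 0.0726 and 0.123), without labelled knockout replicate 2 or 3 (0.0774 and 0.0752) and with no low-count filter (0.0757). Without labelled wild-type replicate 3, the highest of its group, the log2 fold change of Ugt2b37 was 3.32 (edgeR adjusted p = 0.00296).

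Ugt2b5, the most abundant UGT gene per length at 563 ± 39.3 and 623 ± 55 FPKM (SD, n = 3), held 1086, 1289 and 1171 CPM and 1014, 1185 and 1005 CPM. Its groups overlapped and it was not called (log2 fold change -0.15, edgeR adjusted p = 0.272; 0.15 with total counts). Ugt2b36 behaved alike, at 808, 931 and 818 CPM and 766, 810 and 743 CPM (-0.14, edgeR adjusted p = 0.233; 0.15 with total counts). Ugt2b1 held 610, 706 and 636 CPM and 604, 473 and 395 CPM, with labelled knockout replicate 1 just under the labelled wild-type range (-0.41, SE 0.15, edgeR adjusted p = 0.0549). It was called lower without that library (edgeR adjusted p = 0.00623), by DESeq2 (0.0155), by limma-voom (0.0455) and with no low-count filter (edgeR adjusted p = 0.0463). Ugt2b34 (-0.23), Ugt2b35 (0.23) and Ugt2b38 (0.14) had edgeR adjusted p-values of 0.0607, 0.128 and 0.513. Shared 50-base windows made up 41.7% of the Ugt2b5, 37.4% of the Ugt2b38 and 18.3% of the Ugt2b37 transcript, so values of these genes are less certain. They made up at most 1.45% of the other UGT2B transcripts.

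The Ugt1a genes share their last exons on chromosome 1, and 58.2% to 100% of the 50-base windows of their transcripts recur in another gene, chiefly another Ugt1a gene. All windows of Ugt1a6a (100%) recur in Ugt1a7c, so its transcript has no unshared window. Counts of the other Ugt1a genes therefore come from the unshared first exons or were shared out by the counting. Values of single Ugt1a genes are uncertain. Besides Ugt1a1, none of the 5 other tested Ugt1a genes was called. Ugt1a5 had groups that did not overlap (-0.82, SE 0.28, edgeR adjusted p = 0.0546), and Ugt1a6a (-0.12), Ugt1a6b (-0.09), Ugt1a9 (-0.31) and Ugt1a10 (-0.58) had edgeR adjusted p-values from 0.29 to 0.556. Ugt1a2, with 9 and 12 counts over the groups, and Ugt1a7c, with 7 and 25, were too low to test.

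The cofactor genes of the 3 reactions, and the gene lists that follow them, are described by counts. These are to be read against the 20.9% higher and 16.3% lower calls among all tested genes. Differences between the lists were not tested. Of 7 tested genes of UDP-glucuronic acid supply and glucuronide cleavage, 3 were higher and 1 lower. Ugdh, the dehydrogenase that makes UDP-glucuronic acid, rose from 179 ± 14.2 to 337 ± 51.6 CPM (SD, n = 3; log2 fold change 0.91, SE 0.11, edgeR adjusted p = 0.000277). Pgm2 rose (0.99), and so did Gusb (0.60), the lysosomal enzyme that splits glucuronides, while the phosphoglucomutase gene Pgm1 fell (-0.46). Ugp2 (-0.12) and the nucleotide sugar carriers Slc35d1 (0.06) and Slc35d2 (0.01) were not called.

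Of 12 tested genes of sulfate and PAPS supply, protein sulfation (Tpst1 and Tpst2) and sulfate ester cleavage, 1 was higher and 4 lower. PAPS synthase is encoded by Papss1, which rose from 5.23 ± 0.88 to 7.98 ± 0.891 CPM (0.61 as log2 fold change, edgeR adjusted p = 0.0168), and by the more abundant Papss2, at 142 ± 37 and 109 ± 8.26 CPM, which was not called (-0.38, edgeR adjusted p = 0.141). Tpst1 (-0.49), Sumf1 (-0.30), Bpnt1 (-0.29) and the PAPS carrier gene Slc35b2 (-0.24) fell. Slc35b3 (0.37), Bpnt2 (0.15), Tpst2 (-0.17), the sulfate carrier gene Slc26a1 (-0.19), Sts (-0.21) and Suox (-0.22) were not called.

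Of 20 tested genes of glutathione synthesis, reduction and breakdown, 5 were higher and 3 lower, close to the shares among all tested genes. The cystine carrier gene Slc7a11 had a sum of 0 counts in the labelled wild-type libraries and of 58 in the labelled knockout libraries, at least 15.4-fold higher with the same group floor of 3 counts. The glutathione peroxidase gene Gpx3 (log2 fold change 1.47, edgeR adjusted p = 7.6e-05) and the glutathione synthetase gene Gss (0.51, edgeR adjusted p = 0.000726) rose. The aminopeptidase gene Anpep fell (-0.53, edgeR adjusted p = 0.000326). The subunit genes of glutamate-cysteine ligase, Gclc and Gclm, which set the rate of glutathione synthesis, were not called (-0.36 and -0.11, edgeR adjusted p = 0.0617 and 0.288; both chosen after their values were seen).

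Conjugates leave the cell through ABC transporters, of which 4 of 7 tested were higher and 1 lower. Abcc2, the main canalicular pump for conjugates into bile, fell from 758 ± 70.1 to 557 ± 47.4 CPM (SD, n = 3; log2 fold change -0.45, SE 0.10, edgeR adjusted p = 0.00592). Abcc1 (1.37), Abcc5 (1.12), Abcc4 (0.67) and Abcg2 (0.36) rose. The basolateral pump gene Abcc3 (-0.01) and Abcc6 (-0.12) were not called.

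**Figure D5:**
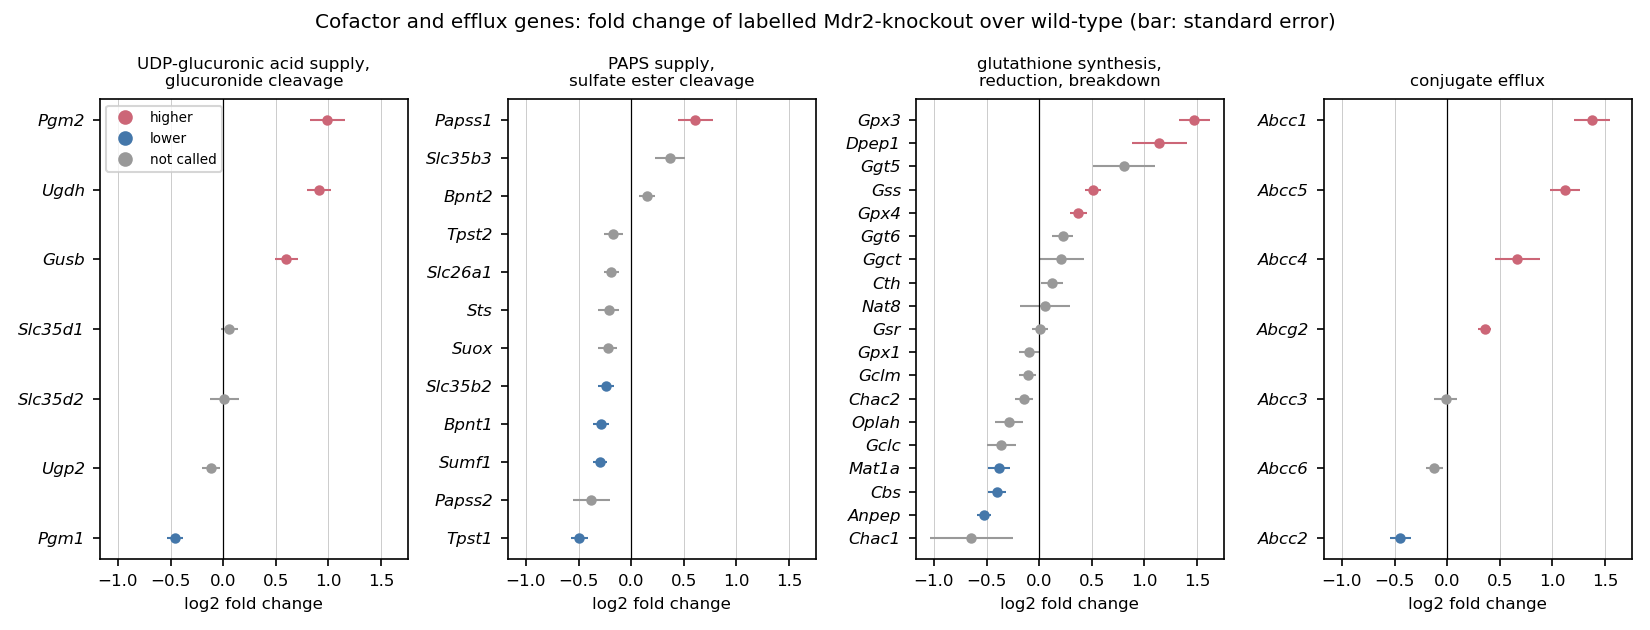
Log2 fold change (horizontal axis) with its standard error (bars) of cofactor and conjugate efflux genes, in red or blue where the edgeR adjusted p was under 0.05 and grey otherwise. Slc7a11, with 0 counts in the labelled wild-type group, is left out. Ugdh (0.91) stands to the right and Abcc2 (-0.45) to the left of 0.

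Of 23 tested regulators of conjugation genes, 3 were higher and 9 lower, against 20.9% higher and 16.3% lower among all tested genes. Nfe2l2, the gene of NRF2, rose from 55.7 ± 5.07 to 85.3 ± 6.82 CPM (SD, n = 3; log2 fold change 0.61, SE 0.09, edgeR adjusted p = 0.000517), as did Mafk (0.62), whose protein pairs with NRF2. Hnf4a (-0.60, edgeR adjusted p = 0.00441) and Foxa3 (-0.64, edgeR adjusted p = 0.00187), which encode hepatocyte transcription factors, fell. Of 18 tested genes known as NRF2 targets outside the transferases, 8 were higher and 0 lower, against the same shares. Pgd stood at 1.04, Srxn1 at 0.85 and Tkt at 0.52. The classic targets Nqo1 and Hmox1, chosen after their values were seen, were not called (0.61 and 0.01, edgeR adjusted p = 0.0639 and 0.969).

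Markers of other cells moved between the same groups. Bile duct cell markers were higher for 16 of 17 tested genes, led by Epcam (3.41), Krt19 (3.53), Bicc1 (2.58) and Cldn4 (5.76), and all 18 summed to 117 to 139 CPM per labelled wild-type library and 472 to 506 CPM per labelled knockout library. Of 12 markers of stellate cells and fibroblasts, 9 were higher (251 to 384 and 607 to 739 CPM), led by Lum (2.35), Pdgfra (1.70), Pdgfrb (1.53) and Col1a1 (3.03). Of 13 tested markers of monocytes and macrophages, 9 were higher (282 to 506 and 620 to 715 CPM), led by Gpnmb (4.52), Ccr2 (2.94), Itgax (3.37) and Itgam (2.44). Of 7 tested lymphocyte and neutrophil markers 4 were higher, with Jchain at 2.51, Cxcr2 at 2.79, Csf3r at 1.31 and S100a8 at 1.44. Of 9 endothelial markers 2 were higher and 3 lower, with Oit3 at -0.54, Kdr at -0.36, Clec4g at -0.39 and Vwf at 0.66. The hepatocyte genes with the smallest p were Cyp2e1 (-1.55), Alb (-0.79), Serpina1c (-0.88) and Ttr (-0.83). No marker of these lists was at 0 in all libraries, and their part in the changes of the conjugation genes was not tested.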

How the data were processed

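RNA-seq of 6 mouse liver libraries was analysed from 2 tables that the authors deposited: whole-number read counts per gene symbol, not normalized, and FPKM of the same genes, which equal those counts scaled by gene length and library total. Per the submitters' processing notes, the tools were HISAT2, Bowtie2 and SAMtools, HTSeq, StringTie and Cufflinks, Trimmomatic and DESeq, with build mm10. The sources used here give neither their roles and versions nor the annotation or strandedness, so reads of overlapping genes and close paralogs cannot be told apart. No column was left without a sample (0); M was read as Mdr2-knockout from the titles, N as wild-type by elimination.

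The main test on the counts was made in R 4.3.3 with edgeR 4.0.16 (filterByExpr, TMM, robust quasi-likelihood test, group as the only term) over all genes, with Benjamini-Hochberg adjustment over the 12612 tested genes and a threshold of 0.05; the pipeline was tested on simulated data. CPM use TMM-scaled library sizes, and 3 counts in a library equal 0.149 to 0.192 CPM. SE were derived from the fold change and its F statistic. Positions and transcripts came from GENCODE M21 (GRCm38; all 55 genes matched), promoters from RefSeq (47 matched). Every called member is named, with the 3 most abundant of each family and, of other lists, the 4 with the smallest p, and all genes of the UDP-glucuronic acid, PAPS, efflux and sex-chromosome lists; others are said to be chosen after their values were seen, or complete the account of the members. Members and lists were chosen with earlier results of these data known.

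Alternatives were scaling by total counts, RLE or the upper quartile, tests by limma-voom, DESeq2 1.42.0 and limma 3.58.1 on log2(FPKM + 0.1), no low-count filter, a filter of 1 CPM in 3 libraries, the replicate number as a block, each library left out, and a 2-fold threshold.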

Additional observations from a re-analysis of the deposited data

How the results depend on the processing

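Of the 25 called members, 8 that rose (Gsta1, Gsta2, Gsta4, Gstm1, Gstm4, Gstm5, Gstp2 and Mgst3) and 6 that fell (Gstt3, Sult2a7, Sult2a8, Ugt1a1, Ugt3a1 and Ugt3a2) kept call and direction in every alternative that gave them a value, the 2-fold threshold apart; Sult2a7 did not pass the filter of 1 CPM. Total-count scaling and limma on log2 FPKM, which carry the same library totals, gave these counts: 7 and 7 members were called lower, GST and MGST genes called lower were 2 and 1, UGT genes called higher 4 and 4, SULT genes called higher 2 and 2, and SULT genes called lower 2 with total counts. Over the whole table they called 5943 and 5750 genes higher and 330 and 332 lower, against 2634 and 2051, and 94.7% and 94.5% of calls were higher, against 56.2% with TMM and 67.2% with upper-quartile scaling. With these settings the uncalled log2 fold changes turned to 0.0707 and 0.0706 for Gstp1, 0.23 and 0.23 for Mgst1, 0.15 and 0.15 for Ugt2b36 and 0.15 and 0.15 for Ugt2b5; leaving out 1 library took Mgst1 from -0.142 to 0.00868, the latter without labelled wild-type replicate 1. Summed FPKM gave ratios of 1.28 for GST and MGST, 0.648 for SULT and 1.01 for UGT; total counts gave 1.27, 0.67 and 1.01. With a change of at least 2-fold, 7 members were higher and 4 lower (GST and MGST 5 and 0, UGT lower 1), and 1404 and 95 of all genes. Without the low-count filter, 2 SULT and 0 UGT genes were higher. DESeq2 called 7 UGT genes lower. Leaving out 1 library gave 9 to 12 higher and 11 to 14 lower members, with 3 to 5 GST and MGST genes lower, 0 to 1 SULT and 0 to 1 UGT genes higher; where that left 2 libraries in a group, the spread was pooled over the groups. The cause of these changes was not tested.

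No label says that the replicate numbers pair the samples. Across genes, deviations from the group means correlated at 0.0842, 0.0449 and -0.0759 for the same-numbered libraries. For libraries of different number the values ran from -0.117 to 0.069. Correlations over all genes cannot exclude a pairing. With the replicate number as a block, 11 members were higher and 16 lower, 0 SULT genes were higher and 7 UGT genes lower; Gstm3 (adjusted p = 0.0796), Sult1c2 (0.0664) and Sult5a1 (0.112) were not called by edgeR, while Gstm2 was called higher and Sult1d1 (0.00495), Ugt2b1 (0.0408), Ugt1a5 and Ugt1a9 lower.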

Other observations

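A list of conjugating enzymes outside the 3 families also held Ephx1, whose enzyme is a hydrolase and not a conjugating enzyme. Of the 15 tested genes of that list, 2 were higher, 3 lower and 10 not called. Among all tested genes, 20.9% were higher and 16.3% lower. The histamine methyltransferase gene Hnmt rose from 13.9 ± 0.662 to 29.7 ± 3.33 CPM (SD, n = 3), with a log2 fold change of 1.09 and edgeR adjusted p = 5.05e-05, and the microsomal epoxide hydrolase gene Ephx1 rose (0.51). The glycine conjugation genes Glyat (-0.51) and Acsm3 (-0.39) fell. Of 9 tested relatives of the glutathione transferases, 3 were higher and 2 lower. Among them the prostaglandin D synthase gene Hpgds, a sigma class transferase, had 0.7 ± 0.391 and 2.96 ± 0.364 CPM (2.07, edgeR adjusted p = 0.00143), and Clic1 (0.79) and the leukotriene pathway gene Alox5ap (0.91) rose, while Ptges2 fell (-0.34).

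Genes known to be male-biased in mouse liver gave 3 higher and 7 lower calls among 14 tested, against 20.9% and 16.3% of all tested genes. Slco1a1 (-1.31), Serpina1e (-1.20), Cyp7b1 (-0.89) and Susd4 (-0.98) fell, while the pheromone protein gene Mup20, chosen after its value was seen, rose from 3203 ± 889 to 9244 ± 990 CPM (1.53, edgeR adjusted p = 0.00152). The list holds 2 of the glutathione transferases, Gstp1 and Gstp2. Of 4 tested female-biased genes, Fmo2 rose (1.05), Cyp2b10 fell (-2.14), and Cyp2a4 (0.94) and Acot3 (-1.38) were not called; the other 10 in the table were too low to test.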
